A study of Mus musculus with 4 samples.

Results

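The genes described here are 44 genes of fatty acid oxidation and of the PPAR alpha response, taken by symbol from 37315 gene rows in each count file. They were listed for their roles in mitochondrial and peroxisomal beta oxidation, omega oxidation, ketone body metabolism and the response to PPAR alpha. The list was drawn up with earlier results of these data known. Shares of the 44 set beside those of all genes are therefore description, not a test. Liver mRNA of C57BL/6 mice aged 23 weeks was sequenced, 2 libraries carrying a synonymous mutation of Foxo1 and 2 wild type libraries. A synonymous mutation leaves the encoded protein sequence as it was, and Foxo1 is a forkhead transcription factor that insulin holds in check in hepatocytes. The labels do not state that libraries of one group came from separate animals, so the spread that p-values rest on here may be technical. The sources used here do not give the sex of the mice, when and how they were fed, the hour of collection or the base altered in Foxo1.

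Liver burns fatty acids in several places. Mitochondria shorten activated fatty acids in a cycle of dehydrogenation, hydration, oxidation and thiolysis, after the carnitine system has carried the chains across the membrane, and the acetyl-CoA feeds the making of ketone bodies. Peroxisomes start on chains that are very long or branched, and cytochromes of the Cyp4a family in the endoplasmic reticulum oxidise the far, omega end. PPAR alpha is a nuclear receptor that binds fatty acids and, paired with RXR, switches on many of these genes, most of all in fasting; in rodents the peroxisomal and Cyp4a genes are its classical targets.

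Levels are normalised CPM (counts scaled to a common library size with TMM factors), errors are SD over the 2 libraries of a group, and log2 fold changes are Foxo1 mutant over wild type. Library totals ran from 73551737 to 95908652 counts, so a floor of 3 counts stood at 0.0313 to 0.0408 CPM. Foxo1 itself was at 33.6 and 53.4 CPM in the mutant libraries, against 44 and 54.8 CPM in the wild type libraries. Its log2 fold change of −0.18 (SE 0.30) came with groups that overlapped and an edgeR adjusted p of 1.0. On the first principal component, with 38.1% of the variance, the mutant libraries lay at 12.8 and 30.3, against −18.9 and −24.2 for the wild type libraries. The wild type libraries also stood apart from each other: on the second, with 31.5% of the variance, the mutant libraries lay at −3.48 and −0.599, against 30.8 for wild type replicate 1 and −26.7 for wild type replicate 2. Hepatocyte markers were high in all 4 libraries, with a summed level over 14 genes of 113817 and 111254 CPM in mutant liver, against 115154 and 129811 CPM in wild type liver. Alb made up most of this sum, with 67932 and 64783 CPM in mutant liver, against 71504 and 80697 CPM in wild type liver. Of the 14 log2 fold changes, 8 were above 0 and 6 below, with a median of 0.02.

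The comparison asked how oxidation genes differed between Foxo1 mutant and wild type liver. All 44 genes passed the filter on low counts, and 43 of them had a log2 fold change below 0, with a median of −0.23. Over all 14657 genes tested the median was −0.0013 and 50.3% were below 0. No oxidation gene passed the threshold of a Benjamini-Hochberg adjusted p below 0.05 in edgeR's quasi-likelihood test, in either direction, where 0.341% of all genes tested did and 0.0614% did so with a lower level. At an unadjusted p below 0.05 there were 14, all lower in mutant liver (31.8% of the 44), and 0 higher, where 6.19% of all genes tested passed that p, 2.22% lower and 3.97% higher. The 2 groups did not overlap, with both mutant libraries below both wild type libraries, in 23 of the 44 (52.3%), against 17.0% of all genes tested; counting either direction it was again 23, against 34.1%. Among the better measured genes, those with a mean of at least 10 CPM, 38 of 39 were below 0, 19 did not overlap and 10 had an unadjusted p below 0.05 and were lower; the shares over all genes at that level were 52.6%, 17.5% and 2.51%. DESeq2 called 4 of the 44, all lower (0.196% of all genes called lower), and limma-voom called 0 (0.0136%). With no filter on low counts edgeR called 7, all lower, where 0.264% of genes were called lower, and with the replicate number as a block 4, where 0.191% were.

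**Figure D1:**
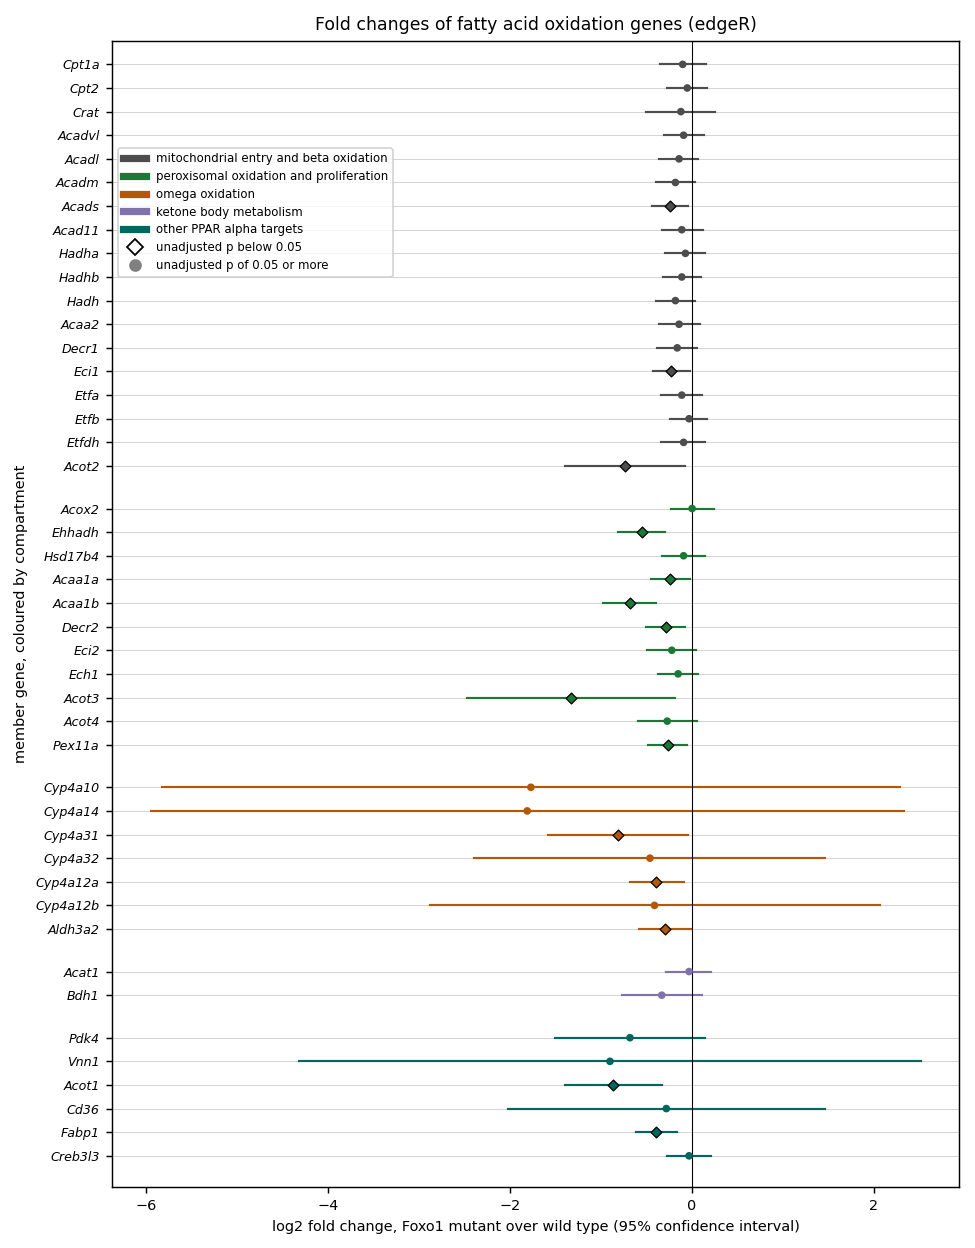
Log2 fold change of each of the 44 genes, Foxo1 mutant over wild type, with its 95% confidence interval from edgeR; colours give the compartment and diamonds an unadjusted p below 0.05. Points of the mitochondrial genes other than Acot2 lie close to 0 with short intervals, whereas Cyp4a10, Cyp4a14 and Vnn1 have the widest intervals.

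The genes of mitochondrial entry and beta oxidation had log2 fold changes mostly a little below 0, and no gene passed the threshold. Of 18 genes, all 18 had a log2 fold change below 0, where 50.3% of all genes tested did, and the median was −0.12. Between single libraries, mutant replicate 1 was below wild type replicate 2 in only 10 of the 18, with a median log2 ratio of −0.0099. There were 3 at an unadjusted p below 0.05 (16.7%, against 2.22% of all genes tested that were lower at that p) and 8 whose groups did not overlap (44.4%, against 17.0%). Acaa2, the mitochondrial 3-ketoacyl-CoA thiolase that performs the last step of the cycle, had 464 and 452 CPM in mutant liver, against 527 and 482 CPM in wild type liver. Its groups did not overlap, by a margin smaller than the wild type spread, and its log2 fold change was −0.14 (SE 0.10, edgeR adjusted p = 0.984). Etfb, a subunit of the flavoprotein that takes electrons from the acyl-CoA dehydrogenases, had 170 and 160 CPM in mutant liver, against 174 and 164 CPM in wild type liver. Its groups overlapped, and the 95% confidence interval of its log2 fold change ran from −0.24 to 0.17. Part of its exons, and 35.8% of its 100-base stretches, also belong to the annotated gene Gm45233 on the same strand.

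Fatty acids enter the mitochondrion through carnitine palmitoyltransferases 1 and 2, and neither gene stood apart. Cpt1a, which sets the pace of entry and is a PPAR alpha target, had 255 and 258 CPM in mutant liver, against 306 and 243 CPM in wild type liver. The mutant values lay between the wild type ones (log2 fold change −0.10, 95% confidence interval −0.35 to 0.16). Cpt2 had a log2 fold change of −0.05 (95% confidence interval −0.27 to 0.17), and Crat, carnitine acetyltransferase, one of −0.12 (SE 0.16). The exons of Crat overlap those of Dolpp1 and Gm16323 on the opposite strand, which a kit that does not mark strand cannot separate.

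The acyl-CoA dehydrogenases, each for its own chain length, had log2 fold changes that differed from one another by less than their confidence intervals. Acads, for short chains, had 105 and 99.6 CPM in mutant liver, against 123 and 117 CPM in wild type liver. Both mutant libraries were below both wild type libraries (log2 fold change −0.24, SE 0.09, unadjusted p = 0.0241, edgeR adjusted p = 0.663). Acadm, for medium chains, had 231 and 211 CPM in mutant liver, against 254 and 245 CPM in wild type liver, and Acadl, for long chains, had 135 and 121 CPM in mutant liver, against 146 and 136 CPM in wild type liver. Neither pair of groups overlapped, and their log2 fold changes were −0.18 and −0.14. Acadvl, for very long chains, overlapped between groups (−0.09, SE 0.10). Acad11, another member of the dehydrogenase family, overlapped too, with a log2 fold change of −0.11.

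The later steps followed the same narrow range. Hadha and Hadhb, the subunits of the trifunctional protein, had log2 fold changes of −0.07 and −0.11, and Hadh, the hydroxyacyl-CoA dehydrogenase of shorter chains, −0.18. Eci1, which shifts double bonds of unsaturated chains so that they can enter the cycle, had 52.5 and 49.7 CPM in mutant liver, against 63.0 and 56.6 CPM in wild type liver. The groups did not overlap (log2 fold change −0.23, SE 0.09, unadjusted p = 0.0309, edgeR adjusted p = 0.707). Decr1, the mitochondrial dienoyl-CoA reductase, had a log2 fold change of −0.16 and groups that did not overlap. Etfa and Etfdh, the partners of Etfb in electron transfer to the respiratory chain, had log2 fold changes of −0.11 and −0.09, and both overlapped between groups.

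Peroxisomal genes showed a wider range, their 11 log2 fold changes having a median of −0.26. Of these, 10 were below 0 (90.9%, against 50.3% of all genes tested). The groups did not overlap in 8 (72.7%, against 17.0%), and 6 were lower at an unadjusted p below 0.05 (54.5%, against 2.22%). Acaa1b, a peroxisomal thiolase, had 237 and 177 CPM in mutant liver, against 321 and 344 CPM in wild type liver. Its mean was 207 ± 42.2 CPM in mutant and 333 ± 16.5 CPM in wild type liver (n = 2 each), 1.61-fold lower, with a log2 fold change of −0.68 (SE 0.13, unadjusted p = 0.000423, edgeR adjusted p = 0.0969). It had the smallest p of the 44 and was the only one of them below an adjusted p of 0.1, where 0.109% of all genes tested were called lower. Ehhadh, the peroxisomal bifunctional enzyme and a strong PPAR alpha target, had 185 and 173 CPM in mutant liver, against 231 and 293 CPM in wild type liver. Here the mutant libraries lay close together and the wild type libraries further apart (log2 fold change −0.55, SE 0.12, unadjusted p = 0.000643, edgeR adjusted p = 0.126).

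Acaa1a, the near copy of Acaa1b, had 71.1 and 69.5 CPM in mutant liver, against 89.2 and 76.3 CPM in wild type liver, a log2 fold change of −0.24 (SE 0.10, unadjusted p = 0.0320, edgeR adjusted p = 0.716). The groups did not overlap. Coding sequences of the 2 thiolases are 96.5% identical, and 19.3% of the 100-base stretches of Acaa1b and 7.21% of those of Acaa1a occur in the other gene, so the split of reads between them is uncertain. The first 60 coding bases show how little separates them; the capital marks the one position that differs.
Acaa1b: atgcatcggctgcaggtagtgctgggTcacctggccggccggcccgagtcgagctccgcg
Acaa1a: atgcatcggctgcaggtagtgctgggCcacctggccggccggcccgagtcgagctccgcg
Both genes lie on chromosome 9 of mm10 (the build GRCm38), Acaa1b at 119148023 to 119157093 on the minus strand and Acaa1a at 119339676 to 119350299 on the plus strand. Exons of Acaa1b also overlap those of Dlec1, and exons of Acaa1a those of Myd88, on the opposite strand in each case.

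Among the other peroxisomal genes, Decr2, the peroxisomal dienoyl-CoA reductase, had 106 and 103 CPM in mutant liver, against 136 and 118 CPM in wild type liver. Its groups did not overlap (log2 fold change −0.28, SE 0.10, unadjusted p = 0.0149, edgeR adjusted p = 0.555). Pex11a, a membrane protein that drives the division of peroxisomes, had 50.6 and 45.4 CPM in mutant liver, against 61.4 and 53.7 CPM in wild type liver (−0.26, SE 0.10, unadjusted p = 0.0214, edgeR adjusted p = 0.639), again without overlap. Eci2 and Ech1, isomerases of unsaturated chains, had log2 fold changes of −0.22 and −0.15. Their groups were apart by little, 59.4 CPM in the higher mutant library against 59.5 CPM in the lower wild type library in the case of Eci2.

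Hsd17b4 and Acox2 did not separate the groups. Hsd17b4, the bifunctional enzyme for branched chains and bile acid precursors, had 385 and 340 CPM in mutant liver, against 404 and 367 CPM in wild type liver. Its groups overlapped (log2 fold change −0.09, 95% confidence interval −0.33 to 0.15). Acox2, the oxidase of branched chains and bile acid precursors, had 276 and 319 CPM in mutant liver, against 285 and 307 CPM in wild type liver. It was the one gene of the 44 with a positive log2 fold change (0.0037, 95% confidence interval −0.23 to 0.24).

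Acyl-CoA thioesterases, which release free fatty acids from CoA, sit in 3 places: Acot1 in the cytosol, Acot2 in mitochondria, and Acot3 and Acot4 in peroxisomes. Acot1, known to respond strongly to PPAR alpha, had 7.02 and 4.52 CPM in mutant liver, against 11.9 and 9.13 CPM in wild type liver. The groups did not overlap and the mean was 1.82-fold lower (log2 fold change −0.87, SE 0.23, unadjusted p = 0.00611, edgeR adjusted p = 0.385). Acot2 had 0.861 and 0.765 CPM in mutant liver, against 1.45 and 1.26 CPM in wild type liver (−0.73, SE 0.31, unadjusted p = 0.0339, edgeR adjusted p = 0.728). Acot3 had 0.609 and 0.299 CPM in mutant liver, against 1.64 and 0.650 CPM in wild type liver (−1.33, SE 0.51, unadjusted p = 0.0272, edgeR adjusted p = 0.676), so its groups were separated by less than the spread within either. Acot4 overlapped between groups (log2 fold change −0.27, SE 0.15). The 4 genes lie in a cluster on chromosome 12 and share sequence, 12.3% of 100-base stretches for Acot1 and 17.1% for Acot2, and the coding sequences of Acot1 and Acot2 are 85.5% identical. Acot3 and Acot4 also share exons with Gm49366 and with 4732463B04Rik on the opposite strand.

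Fabp1, the liver fatty acid binding protein that carries fatty acids in the cytosol and passes them to PPAR alpha, was by far the most abundant of the 44. It stood at 1810 CPM per kb of exon over the 4 libraries, ahead of Acaa2 at 317, Etfb at 143 and Acaa1b at 137 CPM per kb on the same scale. In CPM it had 831 and 904 in mutant liver, against 1113 and 1156 in wild type liver. The 2 libraries of each group were close together and the groups clearly apart (log2 fold change −0.39, SE 0.10, unadjusted p = 0.00292, edgeR adjusted p = 0.266). Its fold was 1.31, on a gene that held 831 CPM or more in every library.

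PPAR alpha binds a direct repeat of 2 half-sites with 1 base between them. The motif, AGGTCA and again AGGTCA with 1 base of any kind (N) between, was looked for on both strands, with up to 2 mismatches in the 12 fixed bases. The search covered the 250 bases before each start in the RefSeq promoter table of GRCm38.p6, which held 33 of the 44 genes in 37 windows. It was found in 5 of these windows (13.5%), against 3.24% of 32851 windows of the same length from all genes. The 5 genes were Fabp1, Acot4, Cd36, Creb3l3 and Etfa, and only the match before Fabp1 had 1 mismatch; 0.484% of all windows held a match with 1 mismatch or none. The single half-site AGGTCA, which such matches can contain, was in 7 of the 37 windows (18.9%), against 14% of all windows. The matches are shown 5′ to 3′ on the strand of the gene, with the 13 bases of the match in capitals, since Fabp1 had groups that stood apart, whereas the other 4 genes carry a match and their groups overlapped.
Fabp1: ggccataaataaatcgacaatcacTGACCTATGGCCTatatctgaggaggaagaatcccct
Acot4: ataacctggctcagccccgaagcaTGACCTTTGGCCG
Cd36: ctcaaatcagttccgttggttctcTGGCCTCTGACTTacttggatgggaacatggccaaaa
Creb3l3: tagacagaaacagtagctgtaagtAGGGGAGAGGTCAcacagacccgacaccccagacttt
Etfa: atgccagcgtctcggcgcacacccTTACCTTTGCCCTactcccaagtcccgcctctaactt
The Fabp1 window is chr6:71199788-71199848 on the plus strand and its match ends 54 bases before the RefSeq start. The others are chr12:84038342-84038378 (plus strand, ending at the start) for Acot4, chr5:17835923-17835983 (minus strand, 50 bases before) for Cd36, chr10:81092764-81092824 (minus strand, 196 bases before) for Creb3l3 and chr9:55512284-55512344 (minus strand, 64 bases before) for Etfa. The Cd36 and Creb3l3 matches lie inside the annotated genes, whose minus-strand 5′ ends are at 17888801 and 81098874. The Creb3l3 window at that 5′ end (81098823 to 81099122) held no match. Of the 5 genes Fabp1 alone had an unadjusted p below 0.05, and Acaa1b, Ehhadh and Acot1 had no match in this window. The 11 genes without a window were not searched: Cyp4a10, Cyp4a14, Cyp4a31, Cyp4a12a, Cyp4a12b, Vnn1, Acaa2, Hsd17b4, Decr1, Crat and Acat1. A match here describes letters and is not a site of binding.

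**Figure D2:**
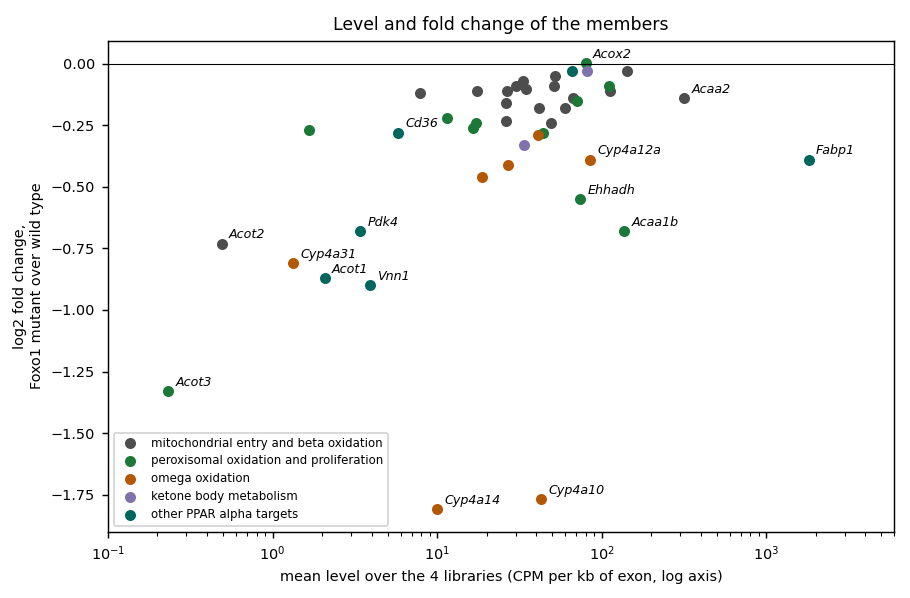
Mean level over the 4 libraries in CPM per kb of exon (log axis) against the log2 fold change, Foxo1 mutant over wild type, for each of the 44 genes, coloured by compartment. Fabp1 lies far to the right at 1810 CPM per kb, and Acaa1b and Ehhadh lie below other genes of like level.

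Genes of omega oxidation held the 2 most negative fold changes of the 44, both with wide errors. All 7 were below 0, with a median of −0.46, and 3 had an unadjusted p below 0.05 (42.9%, against 2.22% of all genes tested that were lower at that p). Those 2 extremes were Cyp4a14 and Cyp4a10, fatty acid omega-hydroxylases that are classical PPAR alpha targets in rodents. Cyp4a10 had 29.5 and 52.2 CPM in mutant liver, against 221 and 57.0 CPM in wild type liver. Wild type replicate 1 was 3.88 times wild type replicate 2, which lay close to mutant replicate 2. The 95% confidence interval of its log2 fold change of −1.77 ran from −5.83 to 2.29 (SE 1.02, edgeR adjusted p = 0.988). Cyp4a14 had 8.65 and 14.7 CPM in mutant liver, against 65.3 and 16.0 CPM in wild type liver, giving a log2 fold change of −1.81 (SE 1.04). Without wild type replicate 1 the log2 fold changes of Cyp4a10 and Cyp4a14 were −0.48 and −0.46, so this library decided their size.

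Cyp4a12a, a form that is higher in male than in female mice, behaved otherwise. It had 205 and 152 CPM in mutant liver, against 238 and 229 CPM in wild type liver, and the wild type libraries lay close together. The groups did not overlap (log2 fold change −0.39, SE 0.13, unadjusted p = 0.0165, edgeR adjusted p = 0.581). Its copy Cyp4a12b had 57.5 and 54.1 CPM in mutant liver, against 106 and 42.0 CPM in wild type liver. There the mutant values lay between the wild type ones, and the sign turned without wild type replicate 1 (0.41). The 2 coding sequences are 98.5% identical. Of the 100-base stretches, 35.8% of those of Cyp4a12a and 36.2% of those of Cyp4a12b occur in another gene, the other copy. The split of reads between them is therefore uncertain. Per kb of exon, Cyp4a12a stood at 3.52 and 2.78 times Cyp4a12b in mutant liver, against 2.21 and 5.39 times in wild type liver. The first 60 coding bases are the same letter for letter.
Cyp4a12a: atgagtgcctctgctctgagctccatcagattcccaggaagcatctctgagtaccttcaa
Cyp4a12b: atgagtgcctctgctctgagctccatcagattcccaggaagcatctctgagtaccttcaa

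Cyp4a31 and Cyp4a32 are near copies of Cyp4a10, with coding identities to it of 96.6% and 97.2%. Capitals in the first 60 coding bases mark the 3 positions at which the copies differ.
Cyp4a10: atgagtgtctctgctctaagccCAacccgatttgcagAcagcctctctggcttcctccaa
Cyp4a32: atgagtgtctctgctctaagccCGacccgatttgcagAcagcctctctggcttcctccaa
Cyp4a31: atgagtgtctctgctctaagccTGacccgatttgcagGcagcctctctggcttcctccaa
Cyp4a31 had 2.98 and 1.90 CPM in mutant liver, against 5.50 and 3.06 CPM in wild type liver, so its groups nearly touched (log2 fold change −0.81, SE 0.33, unadjusted p = 0.0420, edgeR adjusted p = 0.782). Cyp4a32 overlapped between groups (−0.46, SE 0.51). The 6 Cyp4a genes together held 333 and 294 CPM in mutant liver, against 680 and 370 CPM in wild type liver. All 6 lie on chromosome 4. Aldh3a2, the microsomal dehydrogenase that oxidises fatty aldehydes downstream of them, had 188 and 225 CPM in mutant liver, against 280 and 225 CPM in wild type liver. Mutant replicate 2 and wild type replicate 2 were level (log2 fold change −0.29, SE 0.13, unadjusted p = 0.0460, edgeR adjusted p = 0.794).

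Ketone body genes did not separate the groups. Acat1, the mitochondrial thiolase that joins 2 acetyl-CoA, had 328 and 277 CPM in mutant liver, against 328 and 292 CPM in wild type liver (log2 fold change −0.03, 95% confidence interval −0.28 to 0.21). Bdh1, which turns acetoacetate into beta-hydroxybutyrate, had 97.5 and 133 CPM in mutant liver, against 162 and 128 CPM in wild type liver. Its groups overlapped (−0.33, SE 0.18, edgeR adjusted p = 0.944), and its exons overlap Gm15743 on the opposite strand.

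The remaining PPAR alpha targets varied in how they divided the libraries. Pdk4, the kinase that shuts off pyruvate dehydrogenase when fat is burned, had 11.8 and 6.67 CPM in mutant liver, against 15.8 and 13.8 CPM in wild type liver. The groups did not overlap (log2 fold change −0.68, SE 0.30, edgeR adjusted p = 0.908). Vnn1, a pantetheinase, had 4.17 and 9.11 CPM in mutant liver, against 18.2 and 6.46 CPM in wild type liver. Cd36, a fatty acid transporter also made by macrophages and endothelial cells, had 18.2 and 19.2 CPM in mutant liver, against 30.7 and 14.6 CPM in wild type liver. In both genes wild type replicate 1 was the highest and wild type replicate 2 lay below at least 1 mutant library, and without wild type replicate 1 their log2 fold changes were 0.04 and 0.35. Creb3l3, a membrane-bound transcription factor of fasted liver, had 201 and 192 CPM in mutant liver, against 220 and 182 CPM in wild type liver (−0.03, 95% confidence interval −0.27 to 0.21).

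**Figure D3:**
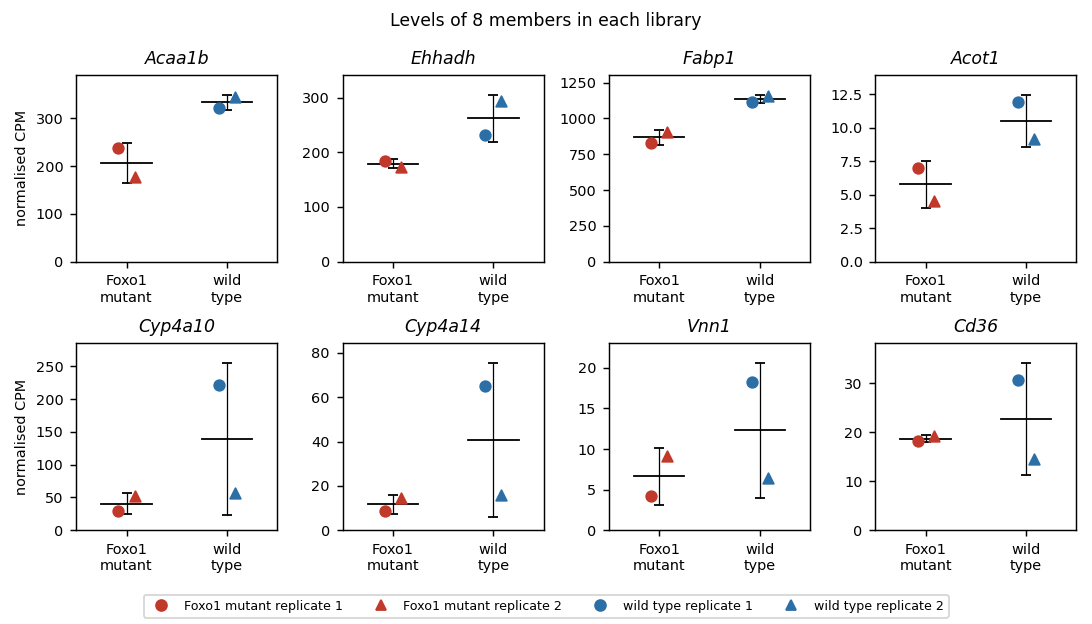
Normalised CPM of 8 genes in each library, with mutant libraries to the left of wild type libraries; lines and whiskers are the mean ± SD of 2 libraries. In the upper row (Acaa1b, Ehhadh, Fabp1, Acot1) both mutant libraries lie below both wild type libraries, and in the lower row (Cyp4a10, Cyp4a14, Vnn1, Cd36) wild type replicate 1 stands above the other 3.

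The libraries of one group thus differed in these genes. In 6 of the 44 genes (13.6%) wild type replicate 1 was more than 2 times wild type replicate 2, namely Cyp4a10, Cyp4a14, Cyp4a12b, Vnn1, Cd36 and Acot3, as it was in 3.03% of all genes tested. The median log2 ratio of wild type replicate 1 to wild type replicate 2 was 0.17 over the 44 genes and 0.93 over the omega oxidation genes. Set library against library, mutant replicate 1 was below wild type replicate 1 in 41 of the 44 genes (median log2 ratio −0.26) and below wild type replicate 2 in 29 (−0.08). Mutant replicate 2 was below them in 43 (−0.31) and 35 (−0.15). Without wild type replicate 1 the median log2 fold change was −0.10 and 34 of the 44 were below 0; without wild type replicate 2 the median was −0.32. In mitochondrial genes the median without mutant replicate 1 was −0.21 and without mutant replicate 2 −0.07.

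Where both mutant libraries lie below both wild type libraries, as in 13 of the 14 genes with an unadjusted p below 0.05, leaving out a library cannot turn the sign, and only the size can move. Acaa1b ranged from −0.91 to −0.49, Ehhadh from −0.71 to −0.37, Fabp1 from −0.45 to −0.33 and Acot1 from −1.22 to −0.59. In Ehhadh, Acaa1b and Fabp1 wild type replicate 2, not replicate 1, was the highest library, unlike in the Cyp4a genes.

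**Figure D4:**
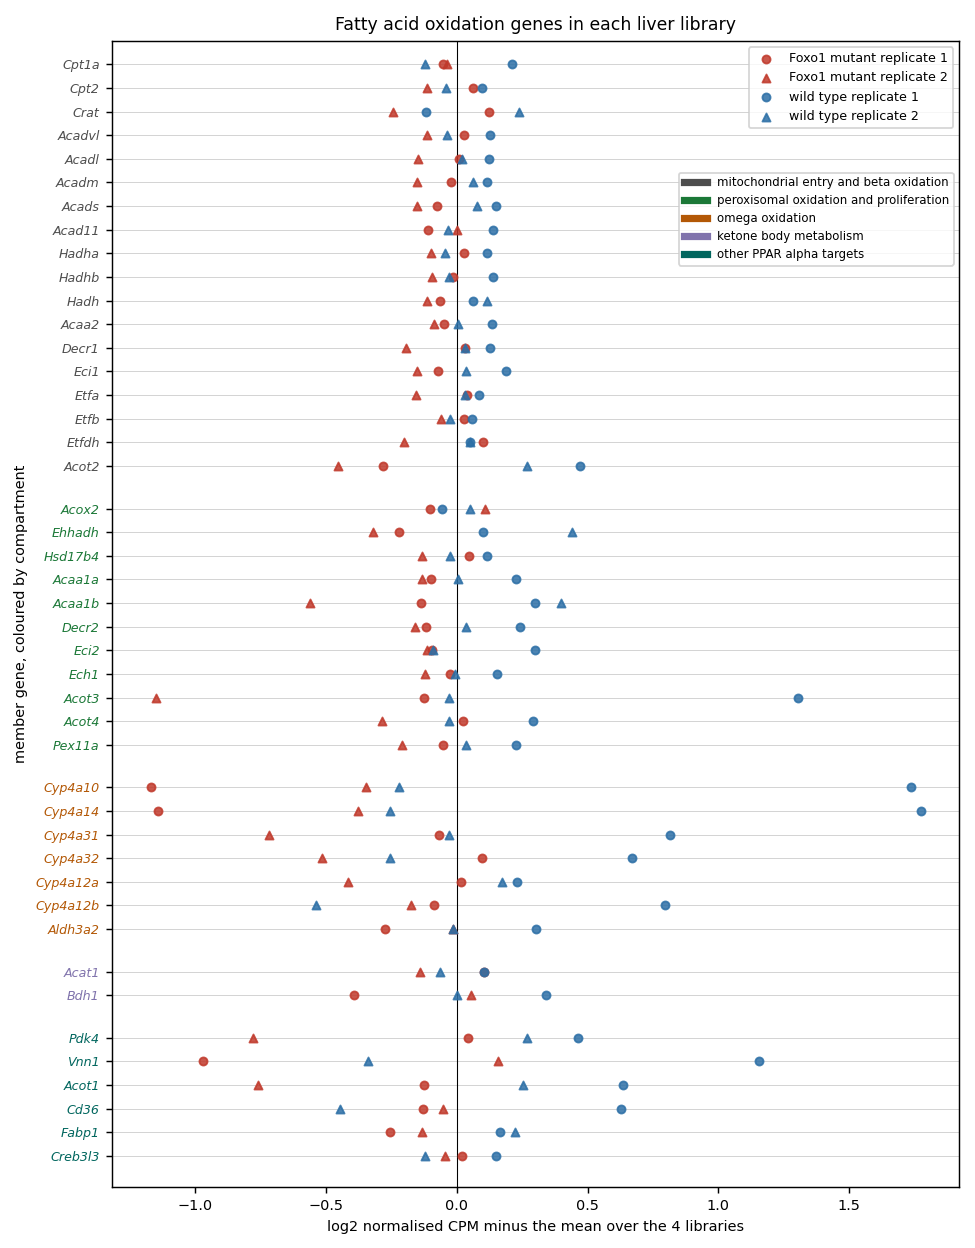
Log2 normalised CPM of each gene in each library, minus its mean over the 4 libraries; red is Foxo1 mutant, blue wild type, circles replicate 1 and triangles replicate 2, with gene names coloured by compartment. Blue circles (wild type replicate 1) lie far right in Cyp4a10, Cyp4a14, Vnn1 and Acot3, and the mitochondrial genes other than Acot2 lie within a narrow band around 0.

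**Figure D5:**
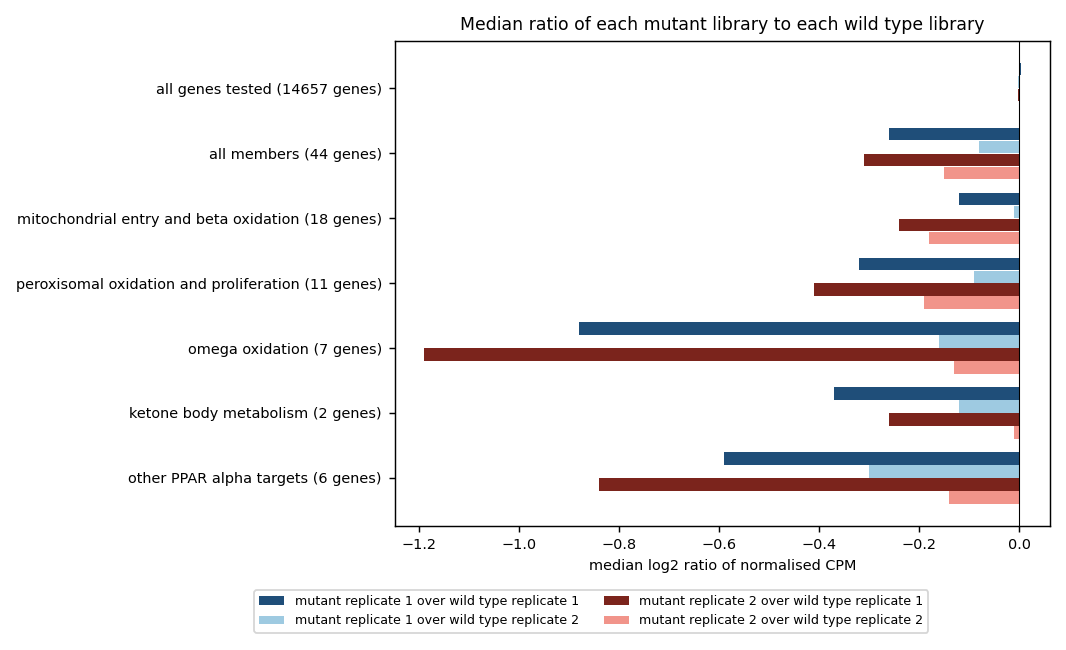
Median log2 ratio of normalised CPM of each mutant library to each wild type library, for all genes tested, the 44 genes and each compartment; dark bars are ratios to wild type replicate 1 and light bars ratios to wild type replicate 2. The medians of the omega oxidation genes are −0.88 and −1.19 against wild type replicate 1 and −0.16 and −0.13 against wild type replicate 2.

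Other genes of the pathway, from a list of 89 outside the 44, had a median nearer 0. Of 81 tested, 0 passed the threshold in either direction in edgeR, 56 were below 0 (69.1%, against 50.3% of all genes tested) and the median was −0.07. At an unadjusted p below 0.05 there were 8, all lower in mutant liver (9.88%, against 2.22%). Ppara, which encodes PPAR alpha, had 70.4 and 63.3 CPM in mutant liver, against 82.7 and 52.1 CPM in wild type liver (log2 fold change −0.01, SE 0.27), and its partner Rxra had 297 and 390 CPM in mutant liver, against 356 and 351 CPM in wild type liver. Neither separated the groups, and the 18 receptors and coregulators had a median of −0.02 with 0 genes at an unadjusted p below 0.05. Uptake and activation genes had a median of −0.05 over 19 genes, further oxidation enzymes −0.07 over 21, ketone body synthesis and export −0.16 over 6 and further PPAR alpha responsive genes −0.10 over 17. Retsat, retinol saturase, had 170 and 150 CPM in mutant liver, against 222 and 193 CPM in wild type liver (−0.38, SE 0.11, unadjusted p = 0.00447, edgeR adjusted p = 0.330). Acsl5, a long-chain acyl-CoA synthetase, had 353 and 330 CPM in mutant liver, against 386 and 510 CPM in wild type liver (−0.39, SE 0.13, edgeR adjusted p = 0.536).

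Markers of other cell types also differed between these libraries. Summed over 14 markers, Kupffer cell and macrophage genes stood at 640 and 717 CPM in mutant liver, against 411 and 453 CPM in wild type liver, with 14 of 14 log2 fold changes above 0, 7 past the threshold and a median of 0.65. Blood markers stood at 295 and 335 CPM in mutant liver, against 239 and 266 CPM in wild type liver, over 6 genes. Sinusoidal endothelial markers summed to 311 and 314 CPM in mutant liver, against 308 and 330 CPM in wild type liver. Lymphocyte markers were above 0 in 7 of 10, and the 3 below 0 were Cd79b (−0.25), Ms4a1 (−0.07) and Il7r (−0.73). Only Ptprc was past the threshold (0.77, edgeR adjusted p = 0.0405). It held 11.4 and 10.1 of the summed 15.2 and 13.5 CPM in mutant liver, against 6.55 and 6.05 of 9.03 and 9.51 CPM in wild type liver. Neutrophil markers were above 0 in 3 of 4 tested. Among hepatocyte zones, periportal markers had a median of −0.05, with 7 of 9 below 0. Hsd17b6, 1 of these 9, was past the threshold (−0.91, edgeR adjusted p = 0.00228). Pericentral markers had a median of 0.07, with 8 of 10 above 0 and 0 past the threshold. Of 16 circadian clock genes, 11 had a log2 fold change above 0, with a median of 0.11; at an unadjusted p below 0.05, 3 were higher (Ciart 1.08, Per2 0.33 and Hlf 0.25) and 1 was lower. That one, the repressor Nr1d1, was the only clock gene past the threshold, and it fell to 27.6 and 28.7 CPM in mutant liver, against 56.9 and 44.9 CPM in wild type liver (log2 fold change −0.86, edgeR adjusted p = 0.0109). The part of these differences in the levels of oxidation genes was not tested, and in bulk tissue fewer cells of a type and less RNA per cell cannot be told apart. The adipocyte list summed to 10.6 and 13.2 CPM in mutant liver, against 7.95 and 11.1 CPM in wild type liver, nearly all of it Adrb3, while Adipoq and Plin1, which define adipocytes, had no count in any library. Of the rest, Cfd had 1 and 0 counts in mutant liver, against 32 and 3 counts in wild type liver. The 6 muscle genes summed to 0.0105 and 0.0239 CPM in mutant liver, against 0.0965 and 0.0554 CPM in wild type liver, where Myh1 had 8 and 2 counts, and Ckm and Mb had no count in any library.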

How the data were processed

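Liver mRNA from 2 Foxo1 mutant and 2 wild type libraries was made into libraries with an Illumina TruSeq kit that does not mark strand, from about 100 ng of mRNA with paired reads of 150 bp, per the labels' protocols. The deposited values are raw counts per Ensembl gene, and the submitters' processing notes name TopHat2 (2.1.1), HTSeq (0.6.0) and the build mm10. The sources used here do not give the strand setting, counting mode or annotation release.

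Symbols matched 35449 identifiers (95.0%). Positions, exon overlaps, exon lengths, shared 100-base stretches of transcripts and longest reading frames came from GENCODE M21 (GRCm38). The filter filterByExpr, at its minimum count of 10, kept 14657 of 23104 genes with a count. They were scaled by TMM and tested with edgeR 4.0.16 in R 4.3.3 (glmQLFit and glmQLFTest, robust, group as the only term, Benjamini-Hochberg adjustment over all genes). Dividing the size of a log2 fold change by the root of its F statistic gave the SE. Every pair of libraries differed beyond sampling noise (chi-square per gene of at least 57.5).

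The 44 genes, their compartments and the other lists were chosen with earlier results of these data known. Values in every library are given for genes with an unadjusted p below 0.05 and for the 2 of highest level per kb in each compartment; Pdk4, Vnn1, Cd36, Cyp4a14, Cyp4a12b, Cpt1a, Acadm, Acadl and Acox2 were added after their values were seen. In 10 simulated sets of 14657 genes with 200 changed, the test found 72.8% of genes changed 2-fold and 37.9% of those changed 1.5-fold, and false calls made up 4.07%. These sets gave every gene the spread usual at its level. Genes that vary more widely between libraries, such as Cyp4a10, were not modelled, so the rates may not hold for these data. Floors of 3 counts cover counting error only, whereas the edgeR confidence intervals include the spread between libraries. DESeq2 1.42.0, limma-voom (limma 3.58.1), other scalings and filters, a replicate block and leaving out each library were alternatives.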

Additional observations from a re-analysis of the deposited data

How the results depend on the processing

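The count of oxidation genes past the threshold was 0 in the edgeR fit and stayed 0 with RLE or upper-quartile scaling, a filter of 1 CPM in 2 libraries, limma-voom and no robust estimation. It was 7 with no filter on low counts, 4 with DESeq2 and 1 at an adjusted p below 0.1, all lower, and 0 to 1 with a library left out. DESeq2 called Acaa1b, Ehhadh, Acot1 and Fabp1, and no filter added Pdk4, Cyp4a31 and Cyp4a12a. Over all genes the count was 50, against 258 with no filter, 24 with 1 CPM in 2 libraries, 8 without robust estimation, 112 with DESeq2 and 7 with limma-voom, and 15 to 32 with a library left out. With the replicate number as a block, 111 genes and 4 oxidation genes (Acaa1b, Ehhadh, Acot1 and Pdk4) were called. Same-numbered libraries did not deviate together (correlation of residuals −0.0072), so the numbers were not taken as pairs. The cause of these differences was not tested.

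With a library left out, the median log2 fold change ranged from −0.32 to −0.10 over the 44 genes, −0.21 to −0.07 in mitochondrial, −0.37 to −0.12 in peroxisomal, −0.93 to −0.32 in omega oxidation, −0.30 to −0.05 in ketone body genes and −0.74 to −0.19 in other targets. Signs turned in 13 genes when a library was left out: Cpt1a (−0.25 to 0.08), Cpt2 (−0.15 to 0.04), Crat (−0.32 to 0.07), Hadha (−0.15 to 0.0088), Etfb (−0.08 to 0.0092), Etfdh (−0.25 to 0.05), Acox2 (−0.11 to 0.11), Cyp4a32 (−0.85 to 0.08), Cyp4a12b (−0.93 to 0.41), Acat1 (−0.16 to 0.08), Vnn1 (−1.57 to 0.04), Cd36 (−0.71 to 0.35) and Creb3l3 (−0.16 to 0.11). The other 31 stayed below 0, which in the 23 without overlap follows from the order of the libraries. Acot3 missed the 1 CPM filter and has no value there. With 2 libraries per group, the SE of log2 fold changes had a median of 0.15 over all genes tested. Fits without a library take the remaining single library to vary as much as the other group.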

Other observations

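Cyp4a10 and Cyp4a14, both on chromosome 4, kept nearly the same ratio in every library although their levels spread widely. Per kb of exon, Cyp4a10 stood at 4.21 and 4.39 times Cyp4a14 in mutant liver, against 4.18 and 4.40 times in wild type liver, while the highest library was 7.5 times the lowest for Cyp4a10 and 7.55 times for Cyp4a14. The near copy Cyp4a32 did not keep step, with Cyp4a10 at 0.730 and 1.97 times its level in mutant liver, against 3.67 and 1.80 times in wild type liver. Acaa1b stood at 7.49 and 5.73 times Acaa1a per kb in mutant liver, against 8.09 and 10.2 times in wild type liver. Angptl4, a secreted lipase inhibitor that responds to PPAR alpha and was chosen after its values were seen, had 40.3 and 51.4 CPM in mutant liver, against 110 and 54.0 CPM in wild type liver, with wild type replicate 1 highest as in Cyp4a10 and Cyp4a14.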
